A study of Mus musculus with 6 samples.

Results

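Amino acids cross the membranes of a cell through carriers of the solute carrier (Slc) superfamily, and 5 of its families were examined in the epididymal fat pad, or eWAT, a white adipose depot of the male abdomen, of cachectic and control mice. The members were the protein-coding genes of the deposited count table whose symbol begins with Slc1a, Slc7a, Slc36a, Slc38a or Slc43a followed by a number. The rule used gene symbols alone and no measured value, although earlier results of these data were known when it was set. It gave the 40 genes analyzed here, among the 54532 listed. They were 7 of Slc1a, 15 of Slc7a, 4 of Slc36a, 11 of Slc38a and 3 of Slc43a. One of them, Slc7a6os, is a gene beside Slc7a6 that takes its name from its neighbor and encodes no carrier. RNA of 3 cachectic and 3 control mice was sequenced, and each mouse gave 1 library. All were male C57BL/6 mice of 6 to 10 weeks. The cachectic mice had been inoculated under the skin with LLC cells (Lewis lung carcinoma, a line grown from a lung tumor of a mouse), and their eWAT was taken on day 21. The methods define cachexia by a loss of more than 20% of body weight and do not say what the control mice received. The tissue was not separated into cells, so that a gene's level in it mixes adipocytes with vessel, stromal and blood cells, and fewer cells of a type cannot be told apart from less RNA per cell.

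The families divide the work of amino acid transport. Slc1a holds the sodium-driven carriers of glutamate and aspartate and a pair of carriers of small neutral amino acids such as glutamine, alanine and serine. Slc7a holds carriers of the cationic amino acids arginine, lysine and ornithine, and light chains that exchange amino acids only when bound to a heavy chain, Slc3a2 or Slc3a1. Slc36a members move amino acids together with protons, most Slc38a members move glutamine and other neutral amino acids with sodium, and Slc43a1 and Slc43a2 let large neutral amino acids such as leucine pass down their gradient. White adipose tissue is known as a source of glutamine and alanine for the rest of the body, and Slc7a10 and Slc36a2 are known surface markers of adipocytes.

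The libraries were of similar depth, and 1 of them stood apart. The total count per library lay between 14928766 and 18855546, and the biological coefficient of variation, the relative spread of a gene between mice of 1 group, was 0.264. Control replicate 1 was the one that differed from the other 5: 254 genes had at least 100 counts in it and at least 10 times the count of every other library, against 0 to 2 such genes in each of the others, and Slc38a3 and Slc7a9 were among the 254. Of the genes that mark epithelial and ciliated cells, which were listed after values had been seen, 8 of 8 were highest in this library, with a summed level of 398 CPM, the count scaled to a common library size, against 9.35 to 13.9 CPM elsewhere. Epcam, an adhesion molecule of epithelia, stood at 46.9 CPM there and at no more than 0.721 CPM in any other mouse. The markers of epididymal epithelium were low but also highest there, with a sum of 4.06 CPM against 0.553 to 1.52 CPM elsewhere. The source of the epithelial genes was not tested. Results that this library touches are therefore given with and without it. The adipocyte markers, which check the labeled tissue, summed to between 25349 and 32435 CPM in the controls and to between 27892 and 44483 CPM in the cachectic mice.

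Of the 40 members, 29 had enough counts to be tested. Slc1a3 and Slc43a1 were expressed at higher levels in cachectic eWAT and Slc7a2 at a lower level. With 3 of 29 (10.3%) past an adjusted p-value of 0.05, the members lay below the 17.6% of all 16003 tested genes, of which 9.0% were called higher and 8.63% lower. This order depended on the setting: the members' share was the smaller in 11 of 18 other settings and the larger in 7, with 15.4% against 8.98% without a filter on low counts and 20% against 14.2% without cachexia replicate 3, so that nothing is read from it. The test was edgeR's quasi-likelihood test with Benjamini-Hochberg adjustment over all 16003 genes. The median log2 fold change of cachectic over control mice was -0.06 over the 29 members and -0.00306 over all genes, and 13 members had a positive and 16 a negative value. The groups of 3 mice did not overlap for 8 members (27.6%), against 40.5% of all tested genes. By family, 1 of 4 tested Slc1a members, 1 of 10 Slc7a members and 1 of 3 Slc43a members passed, and 0 of 3 Slc36a and 0 of 9 Slc38a members did. The adjusted p-value of the other 26 ranged from 0.0539 to 0.989, and 11 of the 29 had an unadjusted p-value under 0.05.

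**Figure D1:**
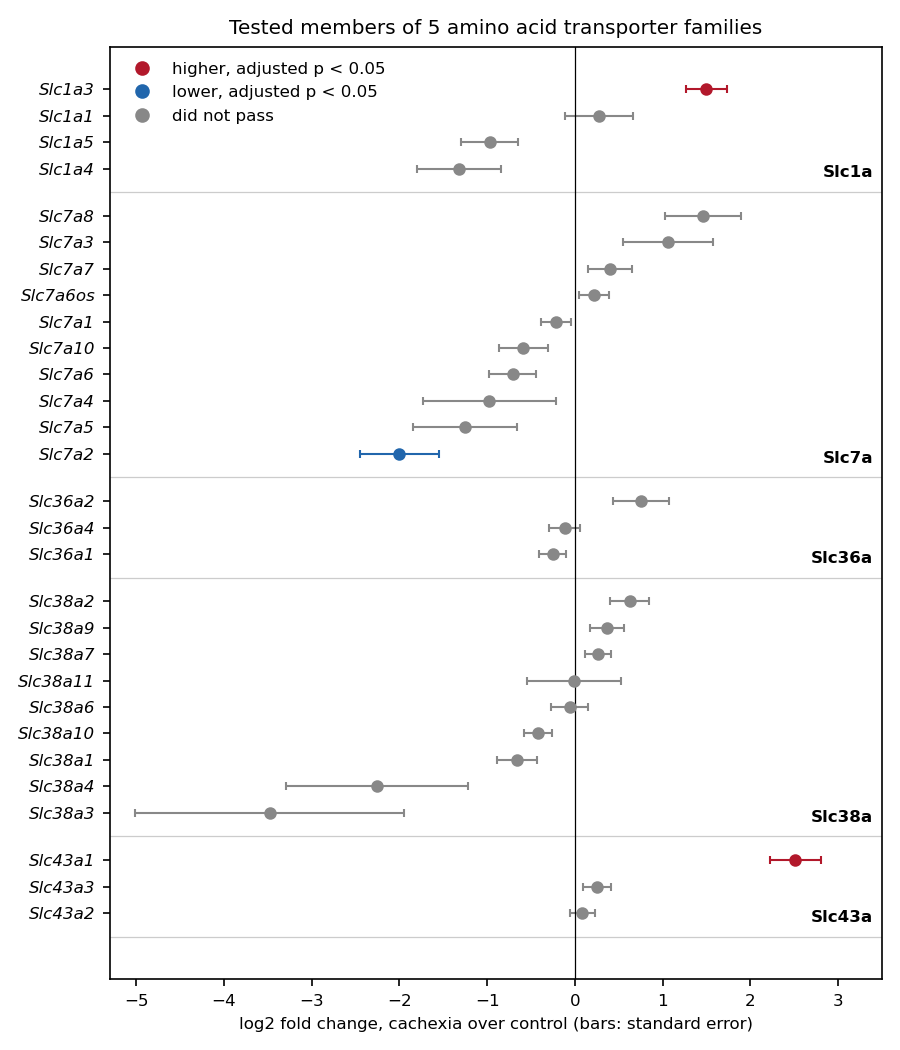
Log2 fold change of cachectic over control eWAT (horizontal axis) for the 29 tested members, grouped by family, with bars for the standard error. Slc43a1 (2.51) and Slc1a3 (1.50) lie to the right of 0 and Slc7a2 (-2.00) to the left with an adjusted p-value under 0.05, and Slc38a3 has the longest bar.

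Slc1a3, the glutamate and aspartate carrier also known as GLAST, lies on chr15:8634124-8710764 on the minus strand (GRCm38). It stood at 186, 284 and 250.1 CPM in control replicates 1, 2 and 3 and at 685, 524 and 825 CPM in cachexia replicates 1, 2 and 3. Every cachectic mouse was above every control mouse. The means were 239.9 ± 49.8 CPM and 678 ± 150.4 CPM (SD, n = 3), a 2.83-fold rise with a log2 fold change of 1.50 (SE 0.24, adjusted p = 0.0071). Without control replicate 1, which held 8.06% of the gene's counts, the log2 fold change was 1.34 (adjusted p = 0.0165).

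Slc43a1, a carrier of leucine and other large neutral amino acids, lies on chr2:84838850-84863594 on the plus strand. Its level was 19.3, 42.0 and 35.4 CPM in the controls and 148, 195 and 208 CPM in the cachectic mice, so that the lowest cachectic value was several times the highest control value. The means of 32.2 ± 11.7 and 184 ± 31.8 CPM (SD, n = 3) differed 5.70-fold, with a log2 fold change of 2.51 (SE 0.29, adjusted p = 0.00278), and this was the largest rise among the 29 tested members. It was 2.25 without control replicate 1 (adjusted p = 0.00289).

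Slc7a2, a carrier of arginine and lysine, lies on chr8:40862396-40922308 on the plus strand. It was measured at 35.5, 18.7 and 21.6 CPM in the controls and at 5.72, 10.3 and 2.82 CPM in the cachectic mice. The groups did not overlap, and the mean fell from 25.2 ± 8.97 to 6.28 ± 3.78 CPM (SD, n = 3), or to 24.9% of the control level on the fitted scale, with a log2 fold change of -2.00 (SE 0.45, adjusted p = 0.0226). Control replicate 1 was the highest of the 6 and held 41.0% of the counts. The call was lost without that library (-1.68, adjusted p = 0.0533), without control replicate 3 (-2.11, adjusted p = 0.0636) and without cachexia replicate 1 (-1.94, adjusted p = 0.0696). Exons of Slc7a2 share up to 473 bases with Gm26584 on the other strand, and the strand setting of the counting is not given in the sources used here. The same limit holds for Slc1a1, Slc1a2, Slc7a4, Slc7a7, Slc7a10, Slc38a9, Slc38a10 and Slc43a2, whose exons share up to 166 to 1524 bases with a gene on the other strand.

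**Figure D2:**
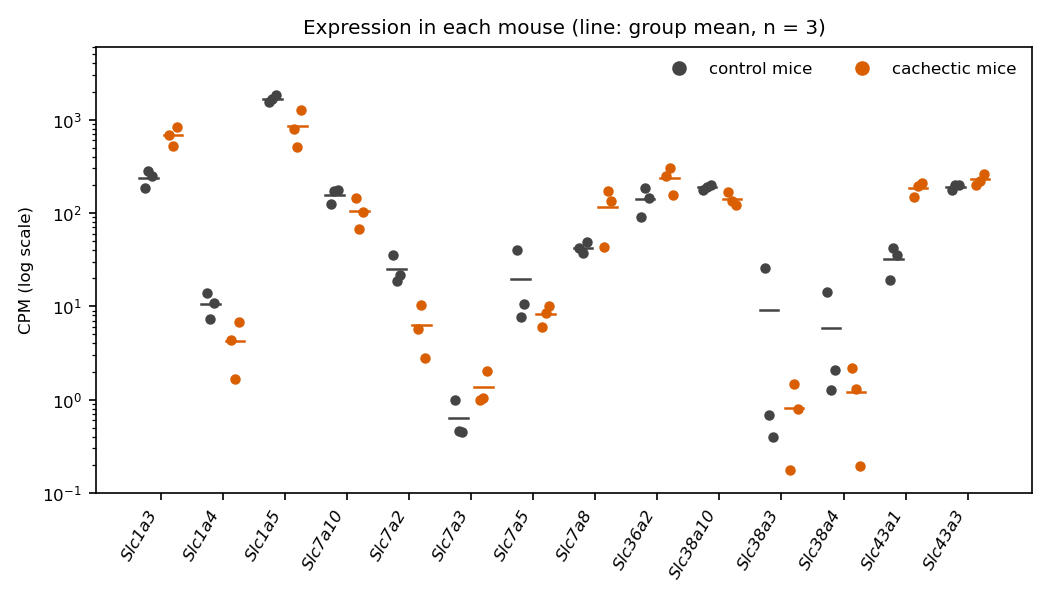
CPM in each mouse (log axis) of the 14 members named by rule, with points for the 3 control and 3 cachectic mice and a line at each group mean. Points of the groups are apart for Slc1a3, Slc43a1 and Slc7a2, which passed the test, and for Slc1a4, Slc1a5 and Slc38a10, which did not. For Slc38a3, Slc38a4 and Slc7a5, 1 control point lies far above the other 2.

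Promoters are shown for called members. No sequence was at hand for Slc7a2, the member called lower, which leaves Slc43a1 and Slc1a3. RefSeq sequences of the 250 bases before the start site (GRCm38.p6) were at hand for both and for 29 of the 40 members in all. Capitals mark matches, on either strand, to the GC box GGGCGG or the TATA box TATAAA. For Slc43a1 only the 126 bases at chr2:84840073-84840198 are printed. They lie within an intron of its longer transcripts, and the other 124 bases of the window belong to an exon of another transcript. The Slc1a3 window, chr15:8710808-8711057 on the minus strand, overlaps no annotated exon.
Slc43a1: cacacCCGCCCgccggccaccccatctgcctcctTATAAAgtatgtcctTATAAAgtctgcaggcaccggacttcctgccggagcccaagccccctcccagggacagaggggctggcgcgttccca
Slc1a3: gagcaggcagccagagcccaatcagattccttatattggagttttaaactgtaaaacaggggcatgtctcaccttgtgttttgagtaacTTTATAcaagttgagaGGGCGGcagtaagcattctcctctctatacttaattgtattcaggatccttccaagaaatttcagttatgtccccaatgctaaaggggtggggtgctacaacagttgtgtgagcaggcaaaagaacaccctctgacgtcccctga
The printed bases of Slc43a1 are 64.3% G and C and those of Slc1a3 44.8%, with a median of 52.4% over all 32851 promoters. The 29 members have 40 promoters in the table, since a gene can have several, which may overlap. GGGCGG was found in 25 of the 40 (62.5%) and in 32.7% of all promoters, and TATAAA in 5 of 40 (12.5%) and in 12.4% of all. A core of the amino acid response element, TGATGNAA, was found in 2 of the 40 (5%), both of Slc7a7, and in 3.45% of all promoters. The matches in the printed bases do not overlap one another, and a match describes letters and no more.

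Within the Slc1a family the balance between members shifted. Levels of different genes are compared per length, as the deposited FPKM, which are fragments scaled to gene length and library depth. Slc1a5, the glutamine carrier on chr7:16781340-16798274, led the family with 398 ± 30.5 FPKM in controls and 201 ± 90.6 FPKM in cachectic mice (SD, n = 3). Its CPM were 1556, 1675 and 1816 in the controls and 787, 512 and 1277 in the cachectic mice. The groups did not overlap, but the log2 fold change of -0.97 (SE 0.32) did not pass (adjusted p = 0.0760). It passed in 3 of 18 other settings.

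Slc1a5 made up 91.7 to 93.5% of the family's summed FPKM in the controls and 66.1 to 75.4% in the cachectic mice, while the share of Slc1a3 went from 6.44 ± 1.08% to 28.8 ± 4.69% (SD, n = 3). Over all 40 members together, Slc1a5 held 55.1 to 57.9% of the summed FPKM in the controls and 23.7 to 42.7% in the cachectic mice. These shares were not tested. The other neutral carrier, Slc1a4 (chr11:20302180-20332713), was at 13.8, 7.28 and 10.9 CPM in controls and at 4.32, 1.66 and 6.82 CPM in cachectic mice. The groups did not overlap, and the log2 fold change of -1.32 (SE 0.48) did not pass (adjusted p = 0.0961). It was -1.09 without control replicate 1 (adjusted p = 0.198). Of the remaining glutamate carriers, Slc1a1 was at 4.93 ± 1.49 and 5.98 ± 2.68 CPM (SD, n = 3; log2 fold change 0.28, adjusted p = 0.655). Up to 1524 of its 8257 exon bases are shared with 4430402I18Rik on the other strand, the longest such overlap among the 9 members that have one. Slc1a2, Slc1a6 and Slc1a7, known mainly from brain and retina, had 22 to 38 counts over all 6 libraries and were not tested.

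**Figure D3:**
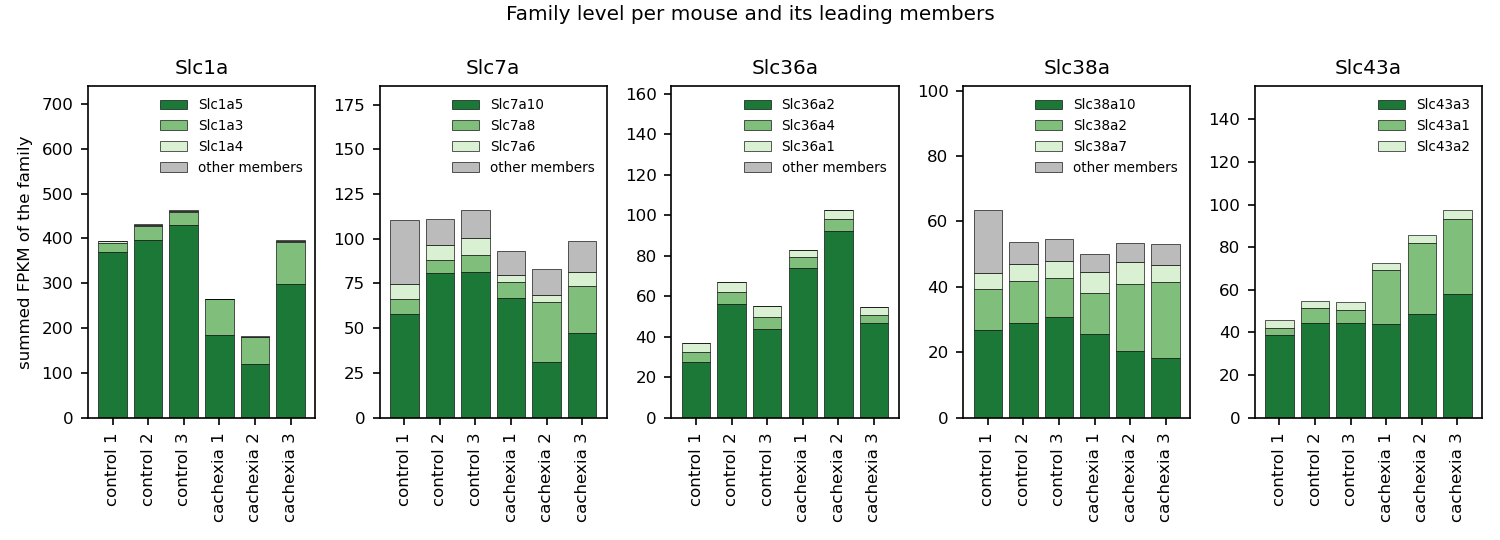
Summed FPKM of each family in each mouse (vertical axis, from 0), stacked by its leading 3 members and the others. In Slc1a the bar of Slc1a5 shrinks and that of Slc1a3 grows in the 3 cachectic mice, and in Slc43a the growth of the bar is mostly that of Slc43a1.

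Among the Slc7a light chains, no member passed the test, and Slc7a8 came closest. Slc7a8 (chr14:54722209-54781946) exchanges neutral amino acids as a partner of the heavy chain Slc3a2. Its level was 41.8, 37.1 and 48.7 CPM in controls and 43.4, 173 and 135 CPM in cachectic mice. Cachexia replicates 2 and 3 were above all controls, and cachexia replicate 1 lay among them. The log2 fold change was 1.46 (SE 0.43, adjusted p = 0.0539), and the gene passed in 1 of the 6 fits that left out 1 mouse. It was 1.86 without cachexia replicate 1 (adjusted p = 0.00449) and 1.07 without cachexia replicate 2 (adjusted p = 0.139), and the highest adjusted p of these fits was 0.149, without control replicate 2.

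Slc7a10 (chr7:35186385-35201114), an exchanger of serine, glycine and other small neutral amino acids, was the most abundant Slc7a member with 73.5 ± 13.5 FPKM in controls and 48.4 ± 18.0 FPKM in cachectic mice (SD, n = 3). In CPM it stood at 124, 174 and 174 and at 144, 67.2 and 102, so that the groups overlapped (log2 fold change -0.59, SE 0.28, adjusted p = 0.177). Up to 237 of its exon bases are shared with Lrp3 on the other strand. Slc7a5 (chr8:121881150-121907694), a light chain that carries leucine and other large neutral amino acids, was at 40.5, 7.74 and 10.6 CPM in controls and at 6.01, 8.54 and 10.2 CPM in cachectic mice. Only control replicate 1 was high. The log2 fold change of -1.26 (SE 0.59, adjusted p = 0.177) became -0.16 without it (adjusted p = 0.745).

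Slc7a6 and Slc7a7, light chains that exchange cationic for neutral amino acids, had log2 fold changes of -0.71 (adjusted p = 0.106) and 0.40 (adjusted p = 0.296). Among the cationic carriers other than Slc7a2, Slc7a1 differed little, at 22.9 ± 3.20 and 19.7 ± 2.81 CPM (SD, n = 3; adjusted p = 0.404). Slc7a3 (chrX:101079210-101086020) was near the detection limit, at 1.00, 0.459 and 0.453 CPM in controls and 0.992, 1.04 and 2.03 CPM in cachectic mice. It rested on 101 counts in all, the groups overlapped, and its log2 fold change was 1.06 (SE 0.51, adjusted p = 0.184). Without control replicate 1 the log2 fold change of Slc7a3 was 1.55 (adjusted p = 0.107). Slc7a4 had 113 counts in control replicate 1 and 8 to 38 in each other library (log2 fold change -0.98, adjusted p = 0.402), and its log2 fold change was 0.00103 without that replicate. Slc7a6os, which is no carrier, had a log2 fold change of 0.22 (adjusted p = 0.396).

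In the Slc43a family, Slc43a1 took a larger share of the level while Slc43a3 led in all 6 mice. Slc43a3 (chr2:84936579-84958509), which is known as a carrier of purine nucleobases rather than amino acids, had the highest FPKM, 42.5 ± 3.10 in controls and 50.1 ± 7.04 in cachectic mice (SD, n = 3). Its CPM were 176, 201 and 200.1 against 200.4, 222 and 264, with a log2 fold change of 0.25 (SE 0.15, adjusted p = 0.288) and groups that overlapped. The share of Slc43a1 in the family's FPKM went from 10.6 ± 3.02% to 36.8 ± 1.97%, and that of Slc43a3 from 82.5 ± 2.09% to 58.9 ± 2.18% (SD, n = 3). The family's summed FPKM was 51.6 ± 4.97 in controls and 85.2 ± 12.4 in cachectic mice. Slc43a2, the closest relative of Slc43a1 in function, had a log2 fold change of 0.08 (adjusted p = 0.717).

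No Slc36a member passed the test. Slc36a2 (chr11:55158470-55185077), a carrier of glycine, proline and alanine, made up 79.4 ± 4.98% of the family's FPKM in controls and 88.1 ± 2.46% in cachectic mice (SD, n = 3). Its level was 89.6, 186 and 144 CPM in controls and 246, 307 and 155 CPM in cachectic mice. Cachexia replicate 3 lay within the control range, and the log2 fold change was 0.75 (SE 0.32, adjusted p = 0.140). It was 0.51 without control replicate 1 (adjusted p = 0.276). Slc36a1, which sits on lysosomes, and Slc36a4 had log2 fold changes of -0.25 (adjusted p = 0.285) and -0.12 (adjusted p = 0.670).

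The Slc38a family also had no called member, and its largest fold changes rested on 1 library. Slc38a3 (chr9:107650634-107669530), a glutamine carrier best known from liver, kidney and brain, was at 26.0 CPM in control replicate 1, at 0.688 and 0.397 CPM in the other controls and at 0.175, 1.47 and 0.787 CPM in cachectic mice. Control replicate 1 held 89.9% of its counts. The log2 fold change of -3.48 (SE 1.53, adjusted p = 0.152) turned to 0.57 (adjusted p = 0.679) without that library. Slc38a4 (chr15:96994820-97055956) behaved alike, with 14.1, 1.26 and 2.10 CPM in controls and 2.16, 1.29 and 0.197 CPM in cachectic mice, and its log2 fold change of -2.25 (SE 1.04, adjusted p = 0.169) became -0.45 (adjusted p = 0.730).

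Slc38a10 (chr11:120103960-120151346) was the most abundant Slc38a member, at 29.0 ± 2.00 FPKM in controls and 21.4 ± 3.72 FPKM in cachectic mice (SD, n = 3). It gave 175, 189 and 201 CPM in controls and 167, 134 and 121 CPM in cachectic mice, without overlap and with a log2 fold change of -0.42 (SE 0.16, adjusted p = 0.107). Slc38a2 and Slc38a1, the broadly expressed sodium-coupled carriers of alanine and glutamine, pointed in opposite directions, at 0.63 (adjusted p = 0.0912) and -0.66 (adjusted p = 0.0830), and neither passed. Slc38a9, which senses arginine at the lysosome, had a log2 fold change of 0.37 (adjusted p = 0.223). Slc38a6, Slc38a7 and Slc38a11 lay between -0.06 and 0.26 with adjusted p-values of 0.261 to 0.989.

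The 11 members that were not tested had between 0 and 390 counts over the 6 libraries, and 8 of them had under 50. Slc7a12 had 0 counts in every library, which allows a level of up to 0.151 to 0.197 CPM per library at 3 counts. Slc7a9, a light chain known from kidney tubules, had 385 counts in control replicate 1 and 0 to 2 in each of the others. Slc38a5 had 268 counts there and 6 to 38 elsewhere, and Slc7a15 had 87 there and 0 to 3 elsewhere. Slc7a13, Slc7a14, Slc36a3 and Slc38a8 had 3 to 37 counts in all. Among the 32 members with at least 50 counts, 6 had more than 50% of them in control replicate 1, which held 18.0% of all counts. These 6 were Slc7a9, Slc7a15, Slc38a3, Slc38a5, Slc38a4 and Slc7a5.

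**Figure D4:**
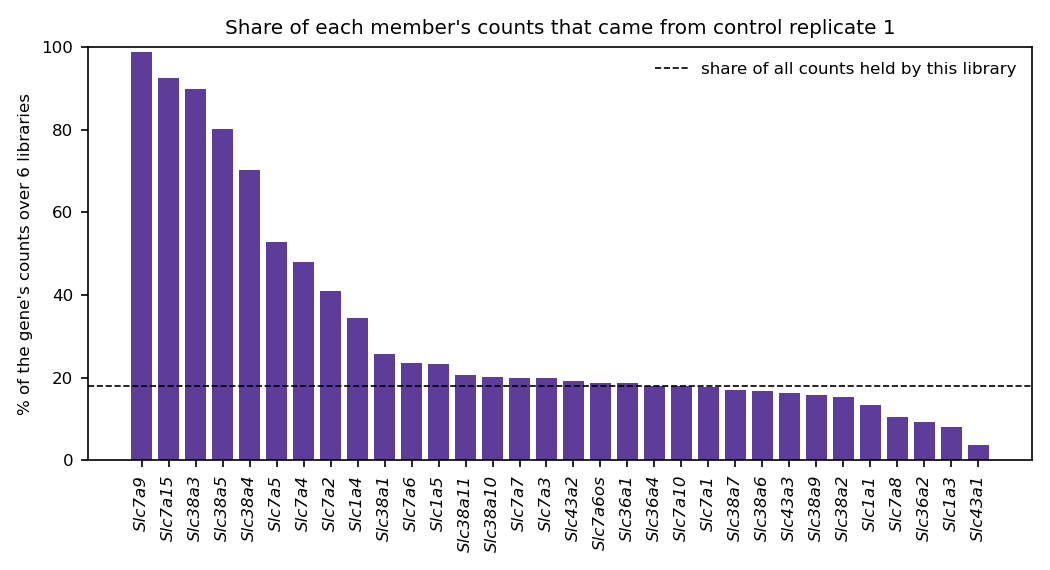
Share of each member's counts over the 6 libraries that came from control replicate 1 (vertical axis, in percent), for the 32 members with at least 50 counts. The dashed line is that library's share of all counts, 18.0%, and 6 bars exceed 50%, whereas Slc43a1 (3.62%) and Slc1a3 (8.06%) are the shortest.

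**Figure D5:**
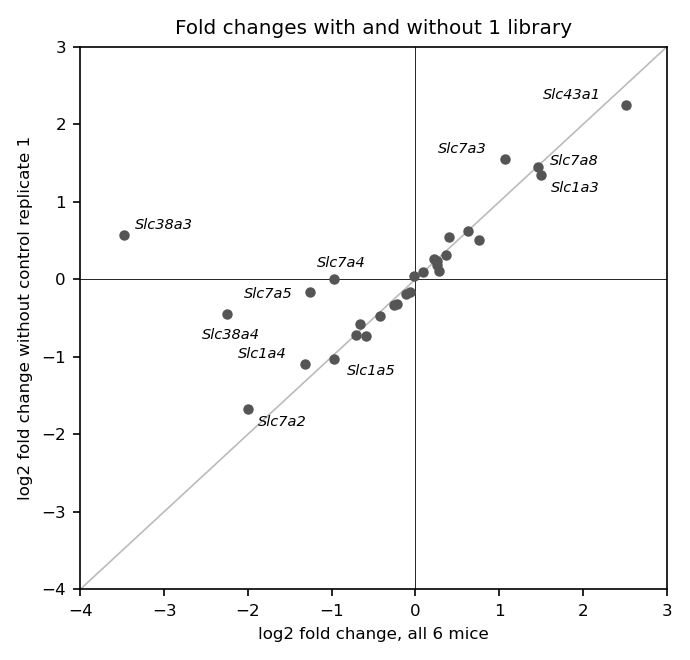
Log2 fold change of the 29 tested members with all 6 mice (horizontal axis) and without control replicate 1 (vertical axis), with the line of equal values. Slc38a3, Slc38a4, Slc7a5 and Slc7a4 lie far above the line, and Slc43a1 and Slc1a3 lie near it.

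Genes that work with these carriers were read from lists. The heavy chain Slc3a2, which brings Slc7a5, Slc7a6, Slc7a7, Slc7a8 and Slc7a10 to the cell surface, was at 155, 132 and 144 CPM in controls and at 199.7, 239 and 294 CPM in cachectic mice. It rose with a log2 fold change of 0.77 (SE 0.17, adjusted p = 0.0229), while 0 of these 5 light chains passed. The call was lost without control replicate 2 (adjusted p = 0.0925) or control replicate 3 (adjusted p = 0.0957). The other heavy chain, Slc3a1, had 0 to 12 counts per library and was not tested. Among 15 tested amino acid transporters of other families, 0 were higher and 2 lower (13.3%, against 17.6% of all tested genes): Slc6a13, a carrier of GABA and taurine (-1.86, adjusted p = 0.0332), and Slc25a15, the mitochondrial ornithine carrier (-1.11, adjusted p = 0.0334). Without control replicate 1 the call of Slc25a15 was lost (-0.83, adjusted p = 0.0753), and with any 1 mouse left out Slc6a13 was called in 3 of 6 fits and Slc25a15 in 1 of 6.

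Of 31 tested genes of amino acid sensing at the lysosome, 4 were higher and 4 lower (25.8%, against 17.6% of all tested genes). Those higher were Flcn, folliculin (1.23, adjusted p = 0.0018), Sesn1 and the leucine sensor Sesn2 (1.03 and 0.91, adjusted p = 0.0054 and 0.0250), and Eif4ebp1, a repressor of translation (0.82, adjusted p = 0.0436). Those lower were Deptor, an inhibitor of mTOR (-1.30, adjusted p = 0.0074), Lamtor1, which anchors the Ragulator complex (-0.92, adjusted p = 0.0117), Rraga (-0.47, adjusted p = 0.0452) and Castor2 (-0.47, adjusted p = 0.0482). Flcn, Sesn1 and Deptor were called in 6 of 6 fits that left out 1 mouse, Lamtor1 in 5, Sesn2 in 3, Rraga and Eif4ebp1 in 1 and Castor2 in 0, and 4 of the 8 were called without control replicate 1. Of 9 tested factors of the amino acid starvation response, 4 were higher and 2 lower (66.7%). Chac1, which degrades glutathione, rose from 3.38 ± 1.27 to 31.3 ± 6.38 CPM (SD, n = 3; log2 fold change 3.22, adjusted p = 0.0016), with Atf3 (1.17), Trib3 (0.71) and Sesn2, which is in both lists, whereas Ddit3 (-0.67) and Atf5 (-0.57) fell. Atf4 itself stood at 149 ± 34.5 and 173 ± 53.5 CPM (SD, n = 3; adjusted p = 0.574). Chac1 was called in 6 of 6 fits that left out 1 mouse, Ddit3 in 3, and Atf3, Trib3 and Atf5 in 1 each, and 2 of the 6 factors were called without control replicate 1.

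Of 25 tested enzymes of glutamine, glutamate, serine and arginine metabolism, 2 were higher and 2 lower, a share of 16% near the 17.6% of all tested genes. Glul, glutamine synthetase, rose from 1032 ± 224 to 2243 ± 396 CPM (SD, n = 3; log2 fold change 1.12, adjusted p = 0.0204), and Shmt1, serine hydroxymethyltransferase, rose by a log2 fold change of 1.51 (adjusted p = 0.0121). Psph, which makes serine from phosphoserine, fell by 1.80 on the log2 scale (adjusted p = 0.0020), and Nos3, the endothelial nitric oxide synthase that uses arginine, fell by 0.47 (adjusted p = 0.0339). Psph was called in 6 of 6 fits that left out 1 mouse and Shmt1 in 5. Glul was called in 4 and missed the threshold without control replicate 2 (adjusted p = 0.0830) or 3 (adjusted p = 0.0923), and Nos3 was called in 1.

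Markers of some other cell types differed between the groups, where 9.0% of all tested genes were called higher and 8.63% lower. Neutrophil markers summed to 32.3 to 49.6 CPM in controls and 250.3 to 793 CPM in cachectic mice (8 of 9 tested higher), erythroid markers to 252 to 451 and 1334 to 2856 CPM (6 of 6 higher), and endothelial markers to 1740 to 1863 and 2674 to 3894 CPM (5 of 10 higher). Fibroblast and progenitor markers summed to 5668 to 6390 CPM in controls and 2564 to 3548 CPM in cachectic mice (1 higher and 5 lower of 10). Their part in the values of Slc1a3, Slc43a1 and Slc7a2 was not tested.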

How the data were processed

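RNA-seq of eWAT from 3 control and 3 cachectic mice was analyzed, and samples took their groups from the labels. The authors removed poor reads, aligned 150 bp paired-end reads with Hisat2, summed them per gene with featureCounts 1.5.0-p3 and deposited these raw counts, 1 column per mouse. The submitters' notes name mm9. GENCODE M21, however, holds 99.8% of the gene identifiers, and 98.3% of those, with all 40 members, at identical positions, so coordinates are given as GRCm38. The authors also deposited FPKM, calculated from count and gene length with another scale factor per sample of 0.932 to 1.06. Their table of log2 fold changes and p-values from DESeq2 1.16.1 was not used.

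The test on the counts was run in edgeR 4.0.16 under R 4.3.3, after filterByExpr and TMM scaling (factors 0.937 to 1.07), by the quasi-likelihood method with no covariates. P-values were adjusted by Benjamini-Hochberg over 16003 genes, with a threshold of 0.05. CPM use the TMM-scaled library size. Standard errors were taken as the absolute log2 fold change over the root of F. In simulated counts, where 200 of 15640 genes had been shifted by 2 on the log2 scale, 167 were recovered and 5.11% of calls were false. DESeq2 recovered 165 in the same counts, with 15.8% of its calls false. The simulation changed fewer genes than were called in the data and held no library that stood apart, so its rates may not carry over. Libraries were compared in pairs, and none had near-identical counts. Values per mouse are given for members past the threshold, for the member of highest mean FPKM in each family, and for other tested members whose log2 fold change is at least 1 in size. Of a list, at most 4 genes past the threshold are named in each direction. Slc3a1, Atf4, Epcam, Cidec, Pck1 and Lep, and members given by counts alone, were named after their values were seen. The members, lists and tests were chosen with earlier results of these data known. In place of TMM, RLE factors or plain library totals were tried. In place of the filter, none or a minimum of 10 counts per sample was tried. Each mouse was left out, a replicate block was fitted, and genes were restricted to those coding for protein. The other tools were DESeq2 1.42.0, limma-voom, and limma 3.58.1 on log2 FPKM after adding 1 or 0.1. A newer quasi-likelihood method and DESeq2 on all genes with any count were added after seeing the data. P-values set the group difference against the spread between these mice, partly pooled across genes, and floors cover counting error only. 1 gene of these families is not reported here.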

Additional observations from a re-analysis of the deposited data

How the results depend on the processing

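Slc1a3 and Slc43a1 were called higher in all 18 other settings, with log2 fold changes of 1.34 to 1.66 and 2.25 to 2.75. Slc7a2 kept its direction in 18 and its call in 15. Of the other named members, Slc7a8 passed in 5 settings and Slc1a4 and Slc1a5 in 3 each, and the remaining 8 passed in 0. The DESeq2 fits were among the passing settings of Slc7a8, Slc1a4 and Slc1a5. DESeq2 made more false calls in the simulation, whose rates may not carry over to these data. With control replicate 1 left out, Slc38a3 reversed to 0.57, and its log2 fold change lay between -4.24 and 0.57 over the fits that left out 1 mouse. This was the one change of direction among the named members. Replicate numbers belong to different mice, and same-numbered mice did not deviate together (correlations 0.00717, -0.0185 and 0.0130). The fit with a replicate block called 1881 genes instead of 2821 and 4 members instead of 3, with 2 lower and 2 of Slc1a, and 0 heavy chains, 5 sensing genes and 2 enzymes. DESeq2 called 3884 genes, with 4 members higher and 3 lower (Slc1a 3, Slc7a 2, Slc38a 1) and 4 transporters of other families, so that 24.1% of members and 24.3% of all genes were called. DESeq2 on all genes with any count called 4 members higher and 4 lower (Slc1a 3, Slc7a 2, Slc38a 2), or 20.5% of members against 12.2% of all genes. Without a filter, 3 members were called higher and 3 lower (Slc7a 3, Slc38a 1). The added lower calls were Slc7a9 and Slc38a5, with 98.7% and 80.2% of their counts in control replicate 1. Library totals alone gave 2 of Slc7a, Slc7a8 being added. With 1 mouse left out, 828 (control replicate 3) to 2339 genes were called, with 2 to 4 members higher and 0 to 4 lower, 1 to 2 in Slc1a, 0 to 2 in Slc7a and 0 to 1 in Slc38a. In the lists these fits called 0 to 1 heavy chains, 0 to 2 other transporters, 3 to 7 sensing genes, 1 to 6 enzymes and 1 to 5 starvation factors. With 3 mice in each group, a member with few counts was measured with little precision. The cause of these changes was not tested.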

Other observations

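The 9 light-chain members and the heavy chain Slc3a2 were also compared per length within each mouse, as a description with no test. The summed FPKM of the light chains was 2.23 to 2.73 times that of Slc3a2 in the controls and 1.07 to 1.51 times that of Slc3a2 in the cachectic mice, and these ranges did not overlap. The sum also holds members that are not among the partners of Slc3a2 named above. Of these, Slc7a9 pairs with Slc3a1, and Slc7a9 and Slc7a15 had 98.7% and 92.6% of their counts in control replicate 1. Slc7a8 alone stood at 0.191 to 0.239 of the Slc3a2 level in the controls and at 0.153, 0.510 and 0.324 in cachexia replicates 1, 2 and 3, so that cachexia replicate 1 lay below the controls.

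Of the cell types not described with the members, T cell markers summed to 14.7 to 22.3 CPM in controls and 7.87 to 9.21 CPM in cachectic mice (1 of 8 tested lower), and macrophage markers to 1452 to 1825 and 1160 to 1802 CPM (1 higher and 2 lower of 10). Of all tested genes 9.0% were called higher and 8.63% lower. Among the adipocyte markers 2 of 10 were higher and 1 lower. Cidec, a lipid droplet protein, and Pck1, a glyceroneogenic enzyme, rose (0.87 and 2.35), and Lep, the hormone leptin, fell by 3.14 on the log2 scale (adjusted p = 0.0475). B cell markers summed to 31.3 to 35.4 CPM in controls and 18.95 to 26.2 CPM in cachectic mice. Their median log2 fold change was -0.91, and 0 of 8 tested passed singly. The sums did not overlap, but neither did the groups for 40.5% of all tested genes, so no B cell difference is read from this. Mesothelial markers summed to 291 to 413 and 177 to 400.0 CPM and skeletal muscle markers to 25.7 to 41.1 and 7.93 to 59.0 CPM, with 0 of 8 and 0 of 3 tested markers past the threshold, and of 7 nerve and Schwann cell markers 2 were lower.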
